A study of Mus musculus with 6 samples.

Results

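The genes described here are 8 inhibitory receptors of myeloid cells, Pirb, Pilra, Lilrb4a, Sirpa, Cd300a, Siglece, Cd33 and Lair1, and Ptpn6, which encodes the phosphatase SHP-1 that many such receptors recruit. They were chosen by symbol, and all 9 were found among the 30445 genes of the count table. RNA was sequenced from wild-type mouse cells in 3 groups of 2 libraries: mouse embryonic fibroblasts (MEF), a myeloid-like cell complex (MCC) and induced macrophages (iMac). The series title says that fibroblasts were reprogrammed with c-Myc alone, a transcription factor of cell growth; for the making of MCC and iMac, details were not given in the sources used. The labels leave it unsaid whether the paired libraries of a group came from separate cultures, so the p-values measure only the spread between these libraries.

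Inhibitory receptors of myeloid cells carry short tyrosine motifs in their cytoplasmic tails, called ITIMs. Kinases of the Src family phosphorylate these motifs, and the phosphatases SHP-1 and SHP-2 or the lipid phosphatase SHIP-1 then bind and dampen signals from activating receptors on the same cell. Many of these receptors have close relatives without ITIMs that signal through the adaptors DAP12 or the Fc receptor gamma chain, so that one gene family holds brakes and accelerators side by side.

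Of the 9 genes, 9 rose in MCC and 8 rose in iMac over MEF, and the exception was Pilra in iMac. Sirpa was already present in MEF, whereas the other 8 genes had mean levels between 0 and 1.11 CPM there (CPM is the count scaled to a library total of 1000000). Between MCC and iMac the genes differed in direction: Sirpa, Cd300a, Lilrb4a, Pirb and Ptpn6 had higher values in both iMac libraries, and Siglece, Lair1 and Pilra had lower values in both, but none of these differences passed with the edgeR fit of all 6 libraries.

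Promoter sequence was available for 7 of the 9 genes, from RefSeq on build GRCm38.p6. The sequences of 4 are shown. Values of Cd300a were higher in iMac than in MCC, those of Siglece and Lair1 were lower, and those of Pirb were close. None of these differences passed with the edgeR fit of all 6 libraries. Each line gives the 120 bases before the annotated start, 5′ to 3′ on the strand of the gene, and capitals mark the letters GAGGAA or their reverse complement TTCCTC, a match to the core of sites bound by PU.1, the main transcription factor of myeloid cells. The stretches of Cd33, Pilra and Ptpn6, not shown, hold no such match in these 120 bases, so the 4 shown are those with one. The matches of Cd33 and Pilra start 226 and 211 bases before the start. Cd300a lies on the plus strand (chr11:114889921-114890040), and Siglece (chr7:43660162-43660281), Lair1 (chr7:4063205-4063324) and Pirb (chr7:3720383-3720502) lie on the minus strand.
Cd300a: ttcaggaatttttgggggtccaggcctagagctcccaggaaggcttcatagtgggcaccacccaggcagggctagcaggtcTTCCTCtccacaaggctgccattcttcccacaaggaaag
Siglece: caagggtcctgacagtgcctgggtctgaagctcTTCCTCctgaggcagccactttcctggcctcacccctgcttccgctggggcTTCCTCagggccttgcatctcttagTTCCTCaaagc
Lair1: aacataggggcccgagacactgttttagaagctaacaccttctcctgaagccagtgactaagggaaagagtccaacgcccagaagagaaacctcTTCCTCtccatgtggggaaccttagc
Pirb: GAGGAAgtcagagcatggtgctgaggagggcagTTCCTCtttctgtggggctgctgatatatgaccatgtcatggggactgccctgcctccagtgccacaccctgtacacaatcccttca

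Over windows of 300 bases (250 before to 50 after the start, both strands), GAGGAA was found in 6 of the 7 promoters and in 28.3% of all 32851 RefSeq promoters. The promoter without it was that of Ptpn6. Siglece held 3 matches, starting 87, 36 and 11 bases before the start site, and Pirb also held 3, while Cd300a, Lair1, Cd33 and Pilra each held 1. TTNNGNAA, a loose form of the C/EBP site, was found in 5 of the 7 promoters and in 40.7% of all promoters; it overlaps a GAGGAA match in Siglece and in Pirb. TGANTCA, the AP-1 site, and CACGTG, the E-box bound by Myc and its relatives, were found in 0 of the 7 promoters, beside 7.8% and 7.2% of all promoters. These matches are letters in a window and not measured binding, and their part in the levels of these genes was not tested.

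Sequencing depth was similar in all libraries, at 34389817 to 39174367 counts, and 18613 genes had enough counts to be tested. Beside the macrophage label, 10 macrophage markers were read, and all were called higher than in MEF in both MCC and iMac. Over all genes tested, 23.4% and 25.1% were called higher. Itgam, Marco, Adgre1, Fcgr1 and C1qa had at most 10 counts in each MEF library and passed the filter on low counts only through MCC or iMac. The number called is thus a description. The summed level of the 10 markers was 25.5 to 50.9 CPM in MEF, 11000 to 11500 CPM in MCC and 18200 to 22100 CPM in iMac. The 12 fibroblast markers summed to 9940 to 22600 CPM in MEF, to 1000 CPM in MCC library 1 but 83.8 CPM in MCC library 2, and to 12.2 to 15.8 CPM in iMac, so the 2 MCC libraries differed in fibroblast RNA. In bulk RNA, fewer cells of a type and less RNA per cell cannot be told apart. Among markers of other blood cells, the 8 granulocyte markers in the table summed to 0.298 to 0.67 CPM in MEF, 11.9 to 15 CPM in MCC and 5.76 to 6.03 CPM in iMac. Ly6g and Mpo were at 0 counts in both, and most of the sum was Prtn3 (10.1 and 14.0 CPM in MCC, 5.17 and 5.52 CPM in iMac), which rose over MEF by 6.98 and 5.80 on the log2 scale. Its part in the values of the 9 genes was not tested. In MCC and iMac the 6 T cell markers summed to 0.482 to 0.728 CPM. In these 2 groups the 4 NK cell markers summed to 0 to 0.078 CPM and the 5 B cell markers to 0.119 to 3.22 CPM. The 5 dendritic cell markers summed to 6.15 to 9.13 CPM there. In MEF the T cell markers summed to 3.81 to 5.96 CPM and the NK cell markers to 0.352 to 0.386 CPM. The B cell markers summed to 30 to 36.8 CPM in MEF, most of it Ebf1, and the dendritic cell markers to 6.99 to 10.4 CPM.

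**Figure D1:**
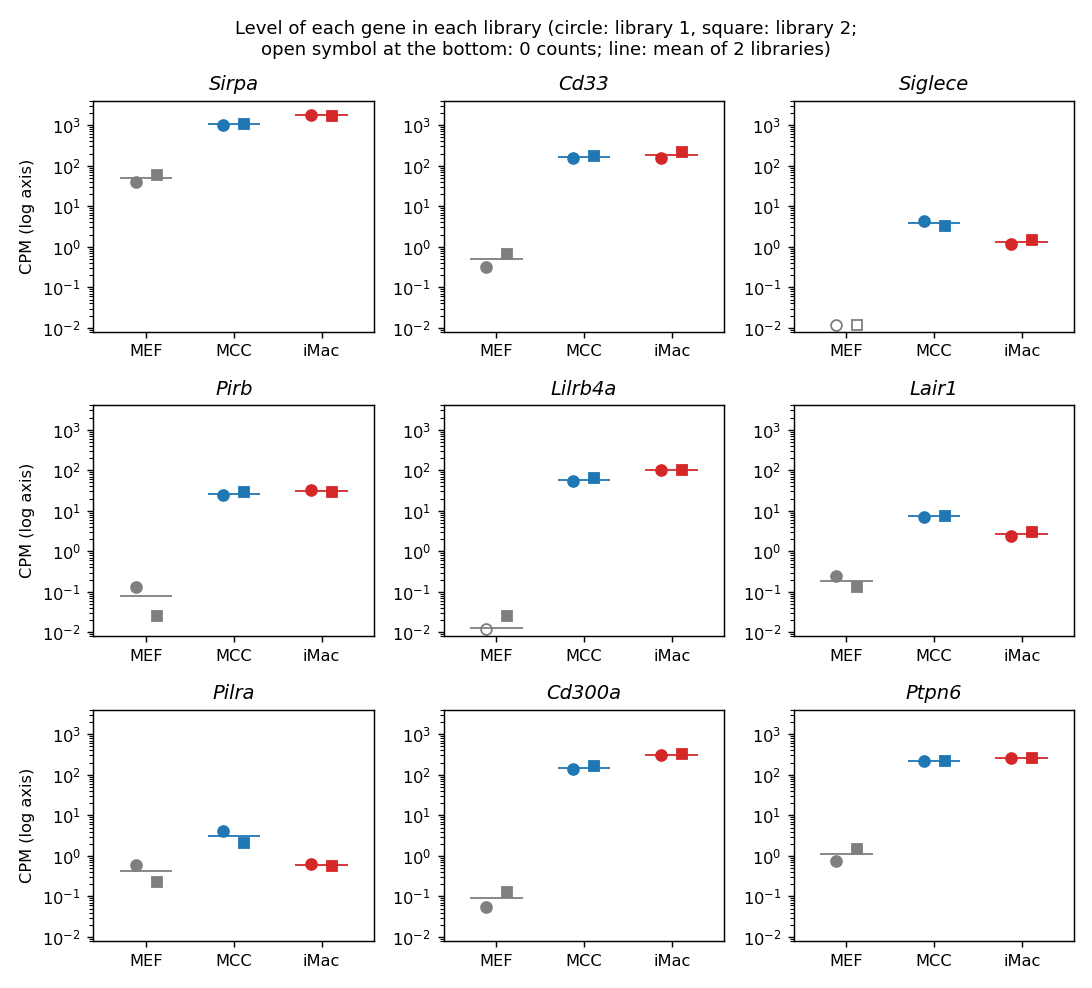
Level of each of the 9 genes (CPM after scaling, log axis) in the 2 libraries of MEF, MCC and iMac; circles are library 1, squares library 2, lines the group mean, and open symbols at the bottom are libraries with 0 counts. Sirpa is the only gene above 10 CPM in MEF; Siglece, Lair1 and Pilra are lower in both iMac libraries than in both MCC libraries.

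Sirpa encodes SIRP-alpha, the receptor for CD47, a surface protein that protects cells from being eaten by macrophages (chr2:129592835-129632228, plus strand, GRCm38, as for all gene positions here). It stood at 39.8 and 60.1 CPM in the MEF libraries, at 1033 and 1098 CPM in MCC, and at 1823 and 1657 CPM in iMac. The 3 groups did not overlap. On the log2 scale Sirpa rose by 4.42 ± 0.25 (SE) in MCC (adjusted p = 0.000459 by the quasi-likelihood test of edgeR, with Benjamini-Hochberg adjustment over all genes tested) and in iMac by 5.12 ± 0.25 (adjusted p = 0.000269). Per kilobase of exon, its level in MEF (8.10 and 12.2 CPM per kb) was above the levels that Siglece, Lair1 and Pilra had in any library.

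Among the receptors for sialic acid, the sugar that caps many glycoproteins, Cd33 was abundant and Siglece scarce. Cd33, whose mouse form differs from the human one in its cytoplasmic tail, had 0.325 and 0.67 CPM in MEF, 157.5 and 175.1 CPM in MCC, and 157.4 and 216.1 CPM in iMac. Cd33 rose by 8.37 ± 0.40 on the log2 scale in MCC (edgeR adjusted p = 0.000298) and by 8.54 ± 0.40 in iMac (edgeR adjusted p = 0.000232). Leaving out MEF library 2 moved these to 9.03 and 9.12. Siglece, a receptor with ITIMs found on neutrophils and macrophages, had 0 counts in both MEF libraries, 4.34 and 3.24 CPM in MCC, and 1.17 and 1.48 CPM in iMac. Against a floor of 3 counts over the MEF group it was at least 95.8-fold higher in MCC (edgeR adjusted p = 0.0018) and at least 33.3-fold higher in iMac (edgeR adjusted p = 0.00225). The 2 genes are neighbours in the Siglec cluster, Cd33 at chr7:43524216-43544428 and Siglece at chr7:43651070-43660161, both on the minus strand and 107 kb apart.

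Pirb and Lair1 belong to the leukocyte receptor complex, a cluster of immunoglobulin-like receptors. Pirb, a receptor for MHC class I molecules (chr7:3711409-3720391, minus strand), had 5 and 1 counts in the MEF libraries, 24.2 and 29.0 CPM in MCC, and 33.4 and 29.1 CPM in iMac. Its log2 fold changes over MEF were 8.33 ± 0.51 for MCC (edgeR adjusted p = 0.000581) and 8.56 ± 0.51 for iMac (edgeR adjusted p = 0.000436). With so few MEF counts their size moved with the MEF library used: leaving out library 1 gave 9.84 for MCC and 10.07 for iMac, and leaving out library 2 gave 7.63 and 7.79. Of the 50-base stretches in annotated Pirb transcripts, 34.0% also occur in transcripts of other genes, foremost Gm14548, Pira2 and Lilra6, so its count is uncertain to that extent. Lair1, a receptor for collagens (chr7:4003402-4063204, minus strand), had 0.244 and 0.129 CPM in MEF, 7.10 and 7.597 CPM in MCC, and 2.45 and 3.05 CPM in iMac. Lair1 rose by 5.28 ± 0.41 in MCC (edgeR adjusted p = 0.00107) and by 3.86 ± 0.39 in iMac (edgeR adjusted p = 0.00172), and its 3 groups did not overlap.

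Lilrb4a encodes gp49B, an inhibitory receptor of macrophages and mast cells (chr10:51490956-51496611, plus strand). It had 0 and 1 counts in the MEF libraries, 53.6 and 62.7 CPM in MCC, and 102.8 and 99.65 CPM in iMac. Lilrb4a rose in both comparisons with MEF (edgeR adjusted p = 0.000131 in MCC and 9.26e-05 in iMac). From the 1 MEF count, the ratio to MEF was 4399 in MCC, with a 95% counting interval of 789 to 173800, and 7666 in iMac, with an interval of 1375 to 302800. These intervals cover counting error only. Other annotated genes share 35.9% of its exonic bases, and 46.7% of its 50-base stretches occur in other genes' transcripts, Lilr4b among them. The overlapping gene Gm49339 itself had 0 counts in MEF and 0.806 to 1.63 CPM in MCC and iMac.

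Cd300a encodes a receptor for phosphatidylserine and phosphatidylethanolamine, lipids exposed on dying cells (chr11:114890041-114904654, plus strand). It had 2 and 5 counts in the MEF libraries, 139 and 163 CPM in MCC, and 301.5 and 320.9 CPM in iMac. The groups did not overlap, and the increases over MEF were 10.62 ± 0.30 in MCC (edgeR adjusted p = 8.3e-05) and 11.67 ± 0.30 in iMac (edgeR adjusted p = 5.91e-05). Without MEF library 2 these values were 11.40 and 12.37.

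Pilra, an inhibitory receptor that binds certain glycoproteins capped with sialic acid (chr5:137821952-137836281, minus strand), was the one gene whose iMac level lay near that of MEF. It had 0.596 and 0.232 CPM in MEF, 4.06 and 2.03 CPM in MCC, and 0.627 and 0.573 CPM in iMac. The iMac values overlapped those of MEF, and the MCC values lay above both. Pilra rose in MCC by 2.87 ± 0.61 on the log2 scale (edgeR adjusted p = 0.0149), a call that was lost without MEF library 2 (2.42, edgeR adjusted p = 0.0557) and had a larger value without MEF library 1 (3.70). In iMac its log2 fold change over MEF was 0.54 ± 0.61 (edgeR adjusted p = 0.49), 1.37 without MEF library 1 and -0.02 without MEF library 2. Another gene, Zcwpw1, shares 15.1% of the exonic bases of Pilra and had 3.28 and 2.89 CPM in MEF, 3.64 and 1.85 CPM in MCC, and 2.72 and 2.71 CPM in iMac. In MCC, Pilra and Zcwpw1 were both higher in library 1, which also held more fibroblast RNA, and the part of either in the Pilra values was not tested.

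Ptpn6 encodes SHP-1, the tyrosine phosphatase that binds phosphorylated ITIMs in blood cells (chr6:124720707-124738714, minus strand). It had 0.732 and 1.49 CPM in MEF, 216.4 and 222.2 CPM in MCC, and 260.6 CPM in each iMac library. Ptpn6 rose by 7.61 ± 0.37 in MCC (edgeR adjusted p = 0.00031) and by 7.86 ± 0.37 in iMac (edgeR adjusted p = 0.000234). The libraries of MCC differed by 2.65% and those of MEF by 68.5% of their mean. Without MEF library 2 the MCC value was 8.27.

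These counts can be read against the whole table. Of all genes tested, 53% were called in MCC against MEF, 23.4% higher and 29.6% lower, beside 9 of the 9 higher and 0 lower. In iMac against MEF 57.6% were called, 25.1% higher and 32.4% lower, beside 8 of the 9 higher and 0 lower. Both MCC libraries lay above both MEF libraries for 9 of the 9 genes, beside 38.2% of all genes (42.4% lay below), and both iMac libraries for 8 of the 9, beside 39.1% (43.5% lay below). The median log2 fold change over the 9 genes was 8.33 in MCC and 8.54 in iMac, or 7.61 and 7.86 with Siglece at its bound, beside -0.05 and -0.06 over all genes tested. The 2 comparisons share the MEF libraries. All 9 genes passed the filter on low counts, Pirb, Lilrb4a, Cd300a, Siglece, Lair1 and Pilra only through their levels in MCC or iMac.

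**Figure D2:**
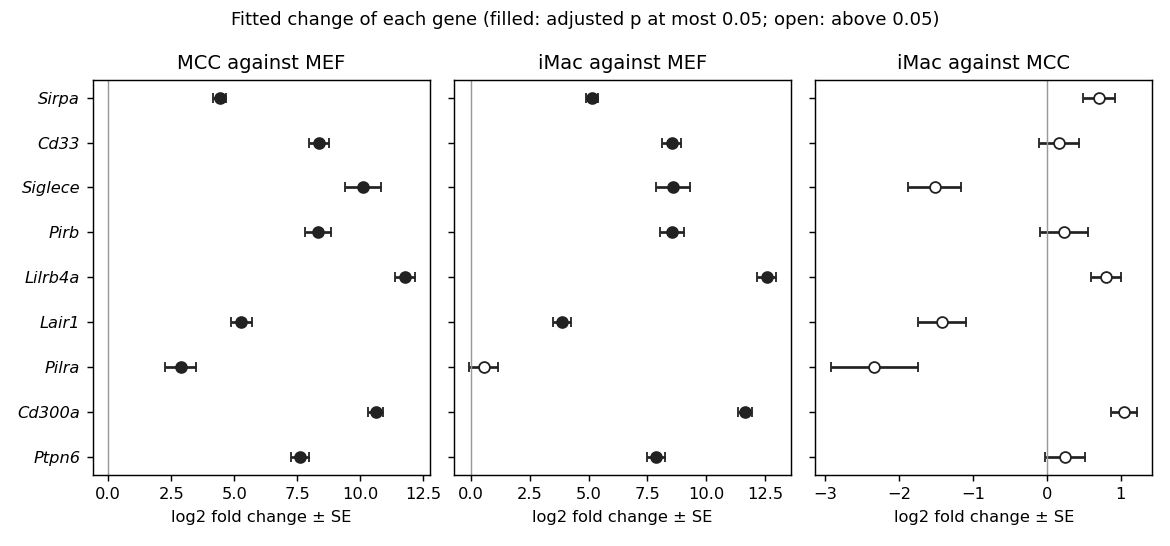
Fitted log2 fold change with its standard error for each of the 9 genes in the 3 comparisons; filled points have an adjusted p of at most 0.05. Every gene except Pilra is filled in both comparisons with MEF, no gene is filled in iMac against MCC, and points for genes with 0 or 1 counts in MEF (Siglece, Lilrb4a) depend on the prior count of the fit.

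The remaining comparison sets iMac against MCC. Values were higher in both iMac libraries than in both MCC libraries for 5 of the 9 genes and lower for 3, beside 27.7% and 27.9% of all genes tested; the libraries overlapped for Cd33. Cd300a had the largest difference upward, a log2 fold change of 1.04 ± 0.18 (edgeR adjusted p = 0.117), followed by Lilrb4a with 0.80 ± 0.20 and Sirpa with 0.71 ± 0.21. Pilra had the largest difference downward, -2.34 ± 0.59 (edgeR adjusted p = 0.18), followed by Siglece with -1.52 ± 0.35 and Lair1 with -1.42 ± 0.33. Pirb (0.23 ± 0.33), Ptpn6 (0.25 ± 0.27) and Cd33 (0.17 ± 0.27) had differences smaller than their standard errors.

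With the edgeR fit of all 6 libraries, 0 of the 9 genes were called in iMac against MCC, where only 4 of 18613 genes (0.0215%; 0.0107% higher and 0.0107% lower) were called at all: Npnt and Id3 lower, Rnf144b and Tecpr1 higher. These 4 were named after their values were seen. At an unadjusted p under 0.05 there were 6 of the 9 genes, 3 higher and 3 lower, beside 18.2% of all genes. DESeq2 called these 6, 3 higher (Cd300a, adjusted p = 1.78e-14; Lilrb4a, adjusted p = 3.12e-07; Sirpa, adjusted p = 0.00816) and 3 lower (Lair1, adjusted p = 0.000376; Pilra, adjusted p = 0.0176; Siglece, adjusted p = 0.0234), out of 2734 genes it called. An edgeR fit of only MCC and iMac, without the MEF libraries and their spread, called 5, namely the same without Siglece, and limma-voom called Cd300a alone. The call of these 6 genes between MCC and iMac was thus not shared by the tools run. The fibroblast markers had a median log2 fold change of -4.91 in this comparison, and their part in the values of the 9 genes was not tested. Siglece and Pilra were higher in MCC library 1, and all others of the 9 genes were somewhat higher in MCC library 2, the one with less fibroblast RNA.

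Levels of different genes were compared per kilobase of annotated exon (CPM per kb). In MCC the order was Sirpa (217 ± 9.36, SD, n = 2), Ptpn6 (78.3 ± 1.47), Cd300a (31.8 ± 3.52), Cd33 (21.4 ± 1.60), Lilrb4a (11.1 ± 1.24), Pirb (5.96 ± 0.757), Siglece (2.05 ± 0.423), Pilra (0.986 ± 0.463) and Lair1 (0.983 ± 0.047). Each gene lay above the next in both libraries except Pilra and Lair1, which overlapped. In iMac the first 7 places were the same, from Sirpa at 354 ± 23.9 CPM per kb to Siglece at 0.715 ± 0.12 CPM per kb, and Lair1 (0.368 ± 0.056) lay above Pilra (0.194 ± 0.012). In MEF, Sirpa (10.2 ± 2.92 CPM per kb) and Ptpn6 (0.397 ± 0.192) came first, and Lair1, Cd300a and Pirb, at 0.018 to 0.025 CPM per kb, were not separated beyond their spread. Sirpa made up 96.7% and 98% of the summed CPM of the 8 receptors in the MEF libraries, 72.6% and 71.3% in MCC, and 75.3% and 71.2% in iMac. The sum itself was 41.2 and 61.3 CPM in MEF, 1423 and 1541 CPM in MCC, and 2422 and 2328 CPM in iMac.

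Relatives without ITIMs were then set beside the inhibitory receptors, from a list of 20 symbols of which 14 were in the table and 13 were tested. All 13 tested were called higher in MCC and in iMac than in MEF, beside 23.4% and 25.1% of all genes tested. Because 10 of the 13 had 0 counts in MEF, and all but Cd300lb passed the filter on low counts only through MCC or iMac, this count is a description and supports nothing further. None was called in iMac against MCC with the edgeR fit of all 6 libraries, and DESeq2 called 3 there, all higher. An edgeR fit of only MCC and iMac called the same 3: Lilr4b (adjusted p = 0.0202), Cd300lb (0.0257) and Cd300c2 (0.0408). In iMac the call of Pilrb1 was lost without iMac library 1 (edgeR adjusted p = 0.0525) or library 2 (edgeR adjusted p = 0.0628). The fourteenth gene, Siglec15, was under the filter on low counts.

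Shares of counts within a family, with 95% exact binomial (Clopper-Pearson) intervals that cover counting error only, were computed for the receptors with close relatives. Pilra held 79.6% (73.3 to 85) and 70.4% (60.8 to 78.8) of the summed counts of Pilra and its activating relatives Pilrb1 and Pilrb2 in the MCC libraries. In the iMac libraries its share was 45.7% (30.9 to 61) and 41.3% (27 to 56.8), on 46 counts each. Both iMac shares lay below both MCC shares, but the intervals of MCC library 2 and iMac library 1 overlapped. Pilrb1 and Pilrb2 themselves were at 0 counts in MEF and at 0.214 to 0.65 CPM in MCC and iMac, at least 7.65-fold and 16.3-fold higher in MCC. Sirpa held 98.7% to 99.3% of the counts of Sirpa, Sirpb1a, Sirpb1b and Sirpb1c in every MCC and iMac library; the largest of these relatives, Sirpb1c, was at 9.92 ± 1.97 CPM in MCC and 9.15 ± 0.61 CPM in iMac (SD, n = 2), and Sirpb1a was at least 49.6-fold higher in MCC and 47.7-fold higher in iMac than in MEF. Pirb held 87.3% to 92.3% of the counts of Pirb, Pira2 and Lilra6 in MCC and iMac, a share that the sequence they have in common makes uncertain. Gm14548, which also has sequence in common with Pirb, was left out of this share. It had 91 and 96 counts in MCC and 111 and 114 in iMac, beside 75 to 102 for Lilra6.

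For Lilrb4a the relative without ITIMs was the more abundant one. Lilr4b, which encodes gp49A and lies 4.25 kb from Lilrb4a, was at 115.5 ± 17.98 CPM in MCC and 221.7 ± 11.5 CPM in iMac, and Lilrb4a held 34.3% and 32.9% of their summed counts in MCC and 30.9% and 31.8% in iMac. Both MCC shares lay above both iMac shares, and these genes have sequence in common. Lilr4b rose by 10.05 ± 0.36 in MCC and by 10.99 ± 0.37 in iMac. Cd300a held 65.7% and 69.2% of the counts of Cd300a and Cd300c2 in MCC, and 74% and 77.2% in iMac. Against Cd300lb, an activating receptor that signals through DAP12 and that rose by 7.62 on the log2 scale in MCC and 8.39 in iMac, Cd300a held 52.6% and 52.8% in MCC and 54.8% and 60% in iMac. Per kilobase, Cd300a was the less abundant gene of both pairs in every one of these libraries: its share beside Cd300c2 was 34% and 37.7% in MCC and 43.3% and 47.7% in iMac, and beside Cd300lb 40.6% and 40.7% in MCC and 42.8% and 48% in iMac.

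**Figure D3:**
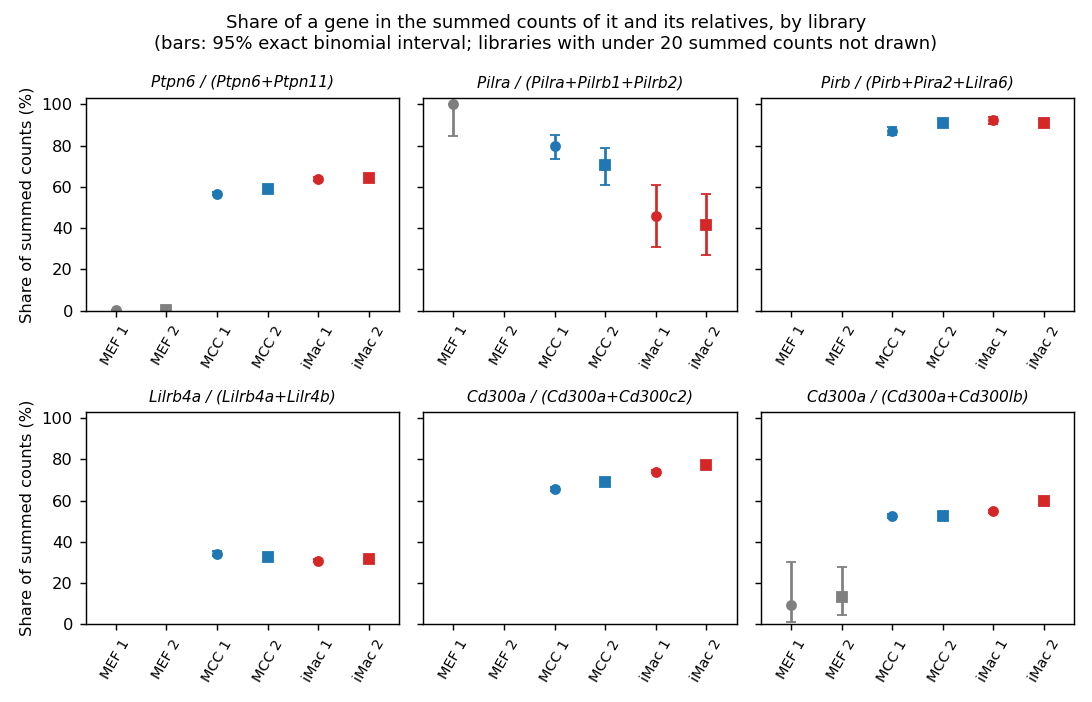
Share of Ptpn6, Pilra, Pirb, Lilrb4a and Cd300a in the summed counts of the gene and the named relatives, by library, with 95% exact binomial intervals. Ptpn6 is under 1% of the counts of Ptpn6 and Ptpn11 in MEF and 56.8% to 64.5% in MCC and iMac; the Pilra share is lower in both iMac libraries (45.7% and 41.3%) than in both MCC libraries.

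The phosphatases that ITIMs recruit did not all follow Ptpn6. Ptpn11, which encodes SHP-2 and is expressed in most cells, had 314.9 ± 63.0 CPM in MEF. It fell to 159.8 ± 6.25 CPM in MCC (log2 fold change -0.98 ± 0.15; edgeR adjusted p = 0.00666) and to 145.9 ± 3.12 CPM in iMac (-1.11 ± 0.15; edgeR adjusted p = 0.00399). Ptpn6 made up 0.203% and 0.55% of the summed counts of Ptpn6 and Ptpn11 in the MEF libraries, 56.8% and 58.8% in those of MCC, and 63.8% and 64.5% in those of iMac. Per kilobase, its share in MCC and iMac was 77.9% to 82.9%. Inpp5d, which encodes SHIP-1, the lipid phosphatase of blood cells, rose from 1.07 ± 0.244 CPM to 329.3 ± 6.49 CPM in MCC and 329.5 ± 2.34 CPM in iMac, a log2 fold change of 8.26 ± 0.20 in each (edgeR adjusted p = 7.27e-05 and 5.91e-05). Inppl1, its widely expressed relative, rose by 0.59 ± 0.12 in MCC and by 1.14 ± 0.12 in iMac; 20.3% of its exonic bases are shared with other genes. Of the 8 effectors listed, 5 rose and 1, Ptpn11, fell in MCC, beside 23.4% higher and 29.6% lower over all genes tested. In iMac 6 rose and 1 fell, beside 25.1% and 32.4%.

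Kinases changed along with the receptors in both directions. Of 12 kinases and adaptors, 11 were tested. In MCC 7 rose and 3 fell, beside 23.4% higher and 29.6% lower over all genes tested. The same numbers rose and fell in iMac, beside 25.1% and 32.4%. Btk, Tyrobp, Fcer1g and Hcst, with at most 8 counts in each MEF library, passed the filter on low counts only through MCC or iMac. The number that rose is therefore a description and supports nothing further. Lyn, the Src-family kinase best known for phosphorylating ITIMs, rose by 2.72 ± 0.13 to 170.0 ± 2.64 CPM in MCC. The 3 that fell in MCC were the widely expressed Src (-2.53 ± 0.35), Fyn (-1.43 ± 0.16) and Yes1 (-2.06 ± 0.17), and they fell in iMac as well. Fgr, a myeloid kinase, was not tested: it had 41 counts in MCC library 2 and 1 or 2 counts in every other library. Syk, which carries signals of activating receptors, rose by 3.56 ± 0.11 in MCC and 4.40 ± 0.12 in iMac. The adaptors Tyrobp (DAP12) and Fcer1g (Fc receptor gamma chain) reached 468.5 ± 49.7 and 245.9 ± 25.0 CPM in MCC and 725.4 ± 22.7 and 374.7 ± 12.3 CPM in iMac, from 0.12 ± 0.06 and 0.144 ± 0.088 CPM in MEF.

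Inhibitory receptors outside the 9 genes were taken from a list of 23, of which 16 were tested. In MCC 12 rose and 0 fell, beside 23.4% higher and 29.6% lower over all genes tested. In iMac 11 rose and 2, Siglecg and Lag3, fell, beside 25.1% and 32.4%. Of those that rose in MCC, all but Pecam1, Havcr2 and Vsir had at most 7 counts in each MEF library. Genes with so few MEF counts passed the filter on low counts only through MCC or iMac, so the count is a description and supports nothing further. The median was 6.03 and 6.09 on the log2 scale in MCC and iMac, and 5.55 and 4.89 with 2 genes at their bound. Fcgr2b, the inhibitory antibody receptor, had 0 and 3 counts in MEF and reached 171 ± 29.5 CPM in MCC and 403 ± 65.7 CPM in iMac, ratios to MEF of 4326 (95% counting interval 1480 to 20980) and 10180 (3484 to 49380). Clec12a, a lectin that dampens responses to dead cells, was at 20.1 ± 3.52 CPM in MCC and 42.8 ± 0.662 CPM in iMac. Clec4a2, an inhibitory lectin, was at 67.8 ± 6.11 CPM in MCC and 27.6 ± 2.25 CPM in iMac, and Cd300lf, an inhibitory relative of Cd300a, at 10.6 ± 2.62 and 3.76 ± 1.13 CPM. The differences of these 4 between MCC and iMac did not pass with the edgeR fit of all 6 libraries (log2 fold changes of 1.24 ± 0.32, 1.09 ± 0.19, -1.30 ± 0.23 and -1.50 ± 0.33 in the order named, adjusted p = 0.184, 0.124, 0.124 and 0.16), whereas DESeq2 called all 4 with the same signs. An edgeR fit of only MCC and iMac called Fcgr2b (adjusted p = 0.0237), Clec12a (0.0201) and Clec4a2 (0.0118) but not Cd300lf. Of these 4, limma-voom called Clec4a2 alone (adjusted p = 0.0374). Cd200r1, the receptor for CD200, rose by 7.84 ± 0.60 in MCC and 8.47 ± 0.61 in iMac.

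Further Siglec genes were measured at low levels. Siglecf, best known from eosinophils, was at 0.357 ± 0.1 CPM in MCC and 0.345 ± 0.146 CPM in iMac; its calls over MEF (edgeR adjusted p = 0.0285 and 0.0281) rested on 8 to 16 counts a library and were each lost when any 1 of the 6 libraries was left out, with edgeR adjusted p from 0.0538 to 0.152. Siglecg, an inhibitory Siglec best known from B cells, had 396 counts in MEF library 1, 40 in MEF library 2, 37 and 2 in the MCC libraries and 1 and 0 in iMac. Its order among libraries followed the fibroblast markers, which were also highest in MEF library 1 and higher in MCC library 1 than in MCC library 2; their part in it was not tested. The fall of Siglecg in iMac (edgeR adjusted p = 0.0292) was lost without MEF library 1 (0.0907), iMac library 1 (0.123) or iMac library 2 (0.145), and with limma-voom (0.14). That of Lag3 was lost with no filter on low counts (0.0569) and without MEF library 1 (0.0661), MEF library 2 (0.146), iMac library 1 (0.0923) or iMac library 2 (0.184). Siglecg was named after its values were seen.

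Ligands of the receptors moved in both directions, and collagens, the ligands of Lair1, were among those that fell. Of 20 ligand genes listed, 18 were tested; 7 rose and 8 fell in MCC, and 8 rose and 8 fell in iMac, and the median was -1.69 and -1.18 on the log2 scale. Over all genes tested, 23.4% rose and 29.6% fell in MCC, and 25.1% rose and 32.4% fell in iMac. Of the ligands that fell, 4 in MCC and 5 in iMac were collagens; in MCC the call of Col1a2 (edgeR adjusted p = 0.0565), Col4a1 (0.0648) and Col17a1 (0.0533) was lost without MEF library 1, which left Col3a1. The number that fell in MCC was 5 to 9 when 1 library was left out, with 5 without MEF library 1 and 5 without MEF library 2. Col3a1, a fibrillar collagen, had 3140 ± 892 CPM in MEF, 41.4 ± 48.0 CPM in MCC and 0.479 ± 0.251 CPM in iMac, where Lair1 had 7.35 ± 0.352 CPM in MCC and 2.75 ± 0.422 CPM in iMac. Cd47, the ligand of SIRP-alpha, was at 90.4 ± 0.802 CPM in MEF, 112.8 ± 21.1 CPM in MCC and 155.5 ± 19.9 CPM in iMac; it rose in iMac by 0.78 ± 0.16 on the log2 scale (edgeR adjusted p = 0.0127), which was lost without iMac library 1 (0.66, edgeR adjusted p = 0.0788), and its MCC value did not pass (0.32 ± 0.16, edgeR adjusted p = 0.154). The MHC class I genes H2-K1 and H2-D1, whose products Pirb binds, rose by 1.72 ± 0.26 and 1.98 ± 0.22 in MCC and by 2.01 ± 0.26 and 2.50 ± 0.22 in iMac.

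**Figure D4:**
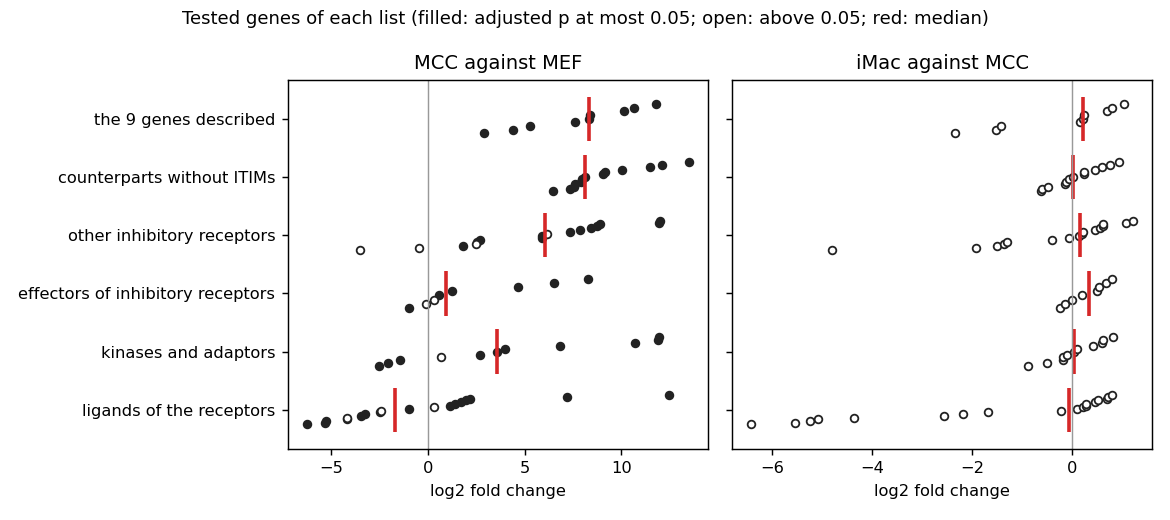
Log2 fold changes of the tested genes of each list in MCC against MEF and iMac against MCC, with the list's median in red; filled points have an adjusted p of at most 0.05. In MCC against MEF the ligands spread to both sides of 0, and most relatives without ITIMs could be tested only because they were high in MCC or iMac; in iMac against MCC no point is filled.

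The genes with the most similar pattern were found by the root-mean-square distance between centred log2(CPM + 0.5) profiles over the 6 libraries, among 14813 named genes tested. The added 0.5 flattens values near 0, so a small distance need not mean a like fold change. Siglece had means of 0 CPM in MEF and 3.79 CPM in MCC, beside 31.3 and 215 CPM for Ssh2, its nearest gene. For Pirb they were Mcoln2 (distance 0.109) and Aoah (0.124), for Lilrb4a Csf3r (0.0847) and Cd300lb (0.11), for Cd300a Hpgds (0.119) and Slco2b1 (0.133), for Cd33 Sash3 (0.129) and Fgd2 (0.147), and for Ptpn6 Gatm (0.088) and Lrmp (0.139). For Sirpa they were Ccrl2 (0.137) and Slc43a2 (0.142). Among the genes with lower values in iMac, Pilra was nearest to Gbp8 (0.176) and Fpr1 (0.241), Siglece to Ssh2 (0.195) and Alox5 (0.253), and Lair1 to Tmem268 (0.13) and Tnfrsf26 (0.236). Alox5, an enzyme of leukotriene synthesis, was at 3.91, 27.8 and 13 CPM in MEF, MCC and iMac. By Pearson correlation over the same libraries only 1 of these 18 neighbours was again among the nearest 2, Mcoln2 for Pirb.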

How the data were processed

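Counts of reads per gene for 6 libraries were used as deposited; per the submitters' processing notes the authors made them with STAR and featureCounts on mm10. The strand setting, the annotation and the handling of multiply matching reads: none is given in the sources used here. Gene positions and exon lengths come from GENCODE M21 on GRCm38, which matched 29529 of 30445 symbols. The test was the two-sided quasi-likelihood test of edgeR 4.0.16 (R 4.3.3), after filterByExpr and TMM scaling, in a model of group over the 6 libraries with prior count 0.125, with p-values adjusted by Benjamini-Hochberg over 18613 genes with a threshold of 0.05. CPM are counts over the TMM-scaled total. Alternatives were DESeq2 1.42.0, limma-voom (limma 3.58.1), median-ratio scaling, other filters, a fit without the third group, a replicate block, and leaving out each library; those for the pathway lists were added after seeing the data. The 9 genes, the lists and the tests were chosen with earlier results of these data known. Named were the 9 genes, fixed genes of each list and the 2 genes nearest to each of the 9; others named are a few further list members, chosen after their values were seen. A single listed gene is not reported here.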

Additional observations from a re-analysis of the deposited data

How the results depend on the processing

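With MCC against MEF, 7 to 9 of the 9 genes were called under all alternatives run, and with iMac against MEF 7 to 8; the 7 were under a filter of 5 CPM in 2 libraries, which leaves Siglece and Pilra untested. Of the members' log2 fold changes under 13 alternatives, 114 of 115 kept direction and call in each comparison with MEF; Pilra lost its call in MCC without MEF library 2, and in iMac it was -0.0154 without MEF library 2 (-0.0154 to 1.3674 without 1 library). The number of all genes called in iMac against MEF was 5173 to 10695 when 1 library was left out, against 10717. In iMac against MCC, Cd33 was -0.0768 without iMac library 2 (-0.0768 to 0.3819 without 1 library). There, the 9 genes gave 6 calls with DESeq2, 1 with limma-voom and 5 in the fit of only the groups compared, and 0 with the replicate block and without any 1 library. All genes gave 2734 with DESeq2, 146 with limma-voom, 89 with no filter on low counts, 1364 in the fit of only the groups compared, 0 with the replicate block, and 0 to 1202 without 1 library (1202 without MCC library 2), against 4. The cause was not tested. The libraries share replicate numbers, but the correlation of same-numbered deviations was 0.189 for MEF and MCC, 0.01 for MEF and iMac and 0.029 for MCC and iMac, so the numbers were not used as pairs; the replicate block changed no call of the 9 genes, and gave 9022 genes called for MCC against MEF and 9908 for iMac against MEF. Among the other receptors, the block removed the calls of Siglecf (adjusted p = 0.0609 in MCC, 0.0615 in iMac) and Lag3 (0.0627 in iMac), and Siglecg was called lower in MCC (0.00642). Levels on the unscaled library total were 0.95 to 1.07 times those given, and 5 of 27 moved by more than their SD. Depth limits Siglece, Lair1, Pilra, Siglecf, Pilrb1 and Pilrb2, at 8 to 284 counts a library in MCC and iMac.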
